A study of Homo sapiens with 36 samples.

Results

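In untreated HCT116 cells, the heavy polysomal pool was compared with the cytoplasmic RNA of the same collection. HCT116 is an established line from a human colorectal carcinoma. The comparison uses 6 of the 36 libraries of a study that followed these cells from before 5-fluorouracil (5-FU) to D16. The other libraries were collected after 10 µM 5-FU had been added to the medium, where it stayed for 48 h. The 6 used are 3 cytoplasmic and 3 heavy-pool libraries collected at D0, before the drug was added, and each pair of libraries carries a letter (A, B or C) that the labels give as a batch. All 15891 genes listed in the deposited table were compared, with no gene chosen or left out. All D0 cells had received emetine, which arrests ribosomes on mRNA, for 10 min. Nuclei and then mitochondria had been pelleted from the lysate before the sucrose gradient was run, and fractions holding mRNA with more than 3 ribosomes made up the heavy pool. The cytoplasmic libraries thus hold the poly(A) RNA of the lysate whatever its ribosome load. Nothing in the labels tells if A, B and C were grown apart, so the spread between these samples may be technical. The p-values of single genes rest in small part on a gene's own spread. They rest mostly on the spread typical of genes of like level.

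A polysome is an mRNA read by several ribosomes at once. How many ribosomes an mRNA carries depends on how often translation starts, how fast ribosomes move and how long the reading frame is, so a short frame has room for few of them even when it is read well. Some mRNAs are known to be held outside polysomes. Those of ribosomal proteins and several translation factors begin with a C and a run of pyrimidines, the terminal oligopyrimidine (TOP) motif, through which their translation follows growth signals. Ferritin mRNAs carry a hairpin in the leader, the iron-responsive element, to which iron regulatory proteins bind when iron is scarce.

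Each value is a gene's number of reads after division by the library's size factor, called a normalised count below. Differences are heavy pool minus cytoplasm on the log2(normalised count + 1) scale, with the standard error of limma's fit over 6 libraries with the letter as a block (n = 3 libraries per fraction), so a fold change of a weakly expressed gene is understated. A gene was called higher or lower in the heavy pool at a limma p-value, adjusted by Benjamini-Hochberg over all 15891 genes, under 0.05. The values give each mRNA's share of a library and not the amount of RNA in a fraction, so a higher value means more than the average mRNA of that fraction. In such bulk libraries fewer cells and less RNA per cell cannot be told apart.

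The 6 libraries held 46.7 to 54.5 megareads over the listed genes. Mitochondrially encoded transcripts took 5.95 ± 0.87% (SD, n = 3) of cytoplasmic reads and 1.75 ± 0.36% of heavy-pool reads. Genes of cytosolic ribosomal proteins took 11.5 ± 1.02% and 6.06 ± 0.23%. Neither pair of groups overlapped, and an exact two-sided permutation test gave p = 0.1 for each, the smallest p that 3 against 3 allows. Of 21 colorectal epithelial markers 11 were listed, with KRT8 at 131259 and EPCAM at 12239 mean normalised counts in the cytoplasm, whereas 5 of 22 markers of other lineages were. Around its group mean a cytoplasmic library varied with an SD of 0.24 to 0.27 on the log2 scale and a heavy-pool library with 0.18 to 0.20.

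At D0, 6133 genes (38.6% of those tested) were called higher in the heavy pool and 4080 (25.7%) lower. Among the 12399 protein-coding genes the shares were 46.3% and 22%. Counts within the lists of protein-coding genes below are best read against these shares. Groups did not overlap for 6461 genes with the heavy pool above and 4395 with it below. Together these were 68.3% of all genes, so groups of a single gene that do not overlap were common. Large depletions outnumbered large enrichments: 1738 genes (10.9%) were called at least 2-fold lower and 1091 (6.87%) at least 2-fold higher. The median difference of all genes was 0.14, and the middle 50% lay between -0.48 and 0.61. TMM scaling on the recovered whole reads, another normalisation, moved all differences down by 0.16 and gave 4812 higher and 5020 lower genes, so the balance of the calls depends on the scaling. The differences of single genes are therefore best read against the median of all genes.

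**Figure D1:**
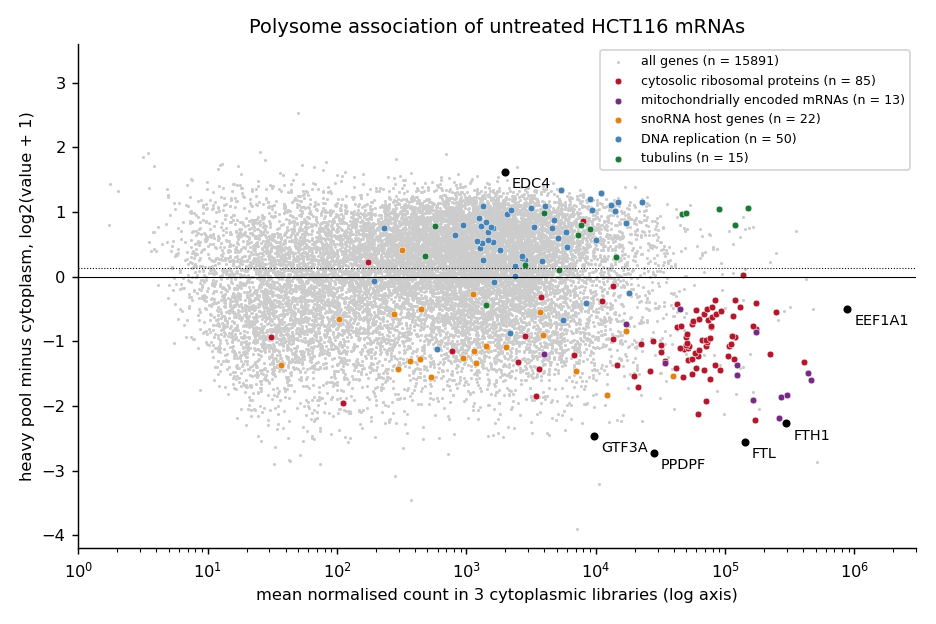
Difference between heavy pool and cytoplasm, on the log2(value + 1) scale, against the mean normalised count of the 3 cytoplasmic libraries (log axis), 1 point per gene. The solid line is 0 and the dotted line the median of all 15891 genes (0.14). Ribosomal protein genes and mitochondrially encoded genes lie mostly below 0, and DNA replication genes and tubulins mostly above it.

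The starts of a few genes and the elements in 2 ferritin leaders show the sequence features that the results below refer to. For the starts, 10 bases before and 20 bases from the annotated RefSeq start are given 5′ to 3′ (build GRCh38.p14). Capitals mark the pyrimidine run (C or T only) that comes within 5 bases of the start, as far as it lies in the stretch shown.
RPS12, chr6:132814559-132814588, + strand: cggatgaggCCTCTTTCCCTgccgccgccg
RPL26, chr17:8383174-8383203, - strand: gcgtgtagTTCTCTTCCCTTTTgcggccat
RPL26L1, chr5:172958719-172958748, + strand: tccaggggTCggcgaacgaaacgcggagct
RPS27, chr1:153990752-153990781, + strand: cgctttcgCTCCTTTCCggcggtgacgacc
RPS27L, chr15:63157458-63157487, - strand: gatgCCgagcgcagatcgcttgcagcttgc
RPL7L1, chr6:42879606-42879635, + strand: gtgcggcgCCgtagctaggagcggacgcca
TPT1, chr13:45341164-45341193, - strand: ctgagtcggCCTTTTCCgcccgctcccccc
EEF1A1, chr6:73521013-73521042, - strand: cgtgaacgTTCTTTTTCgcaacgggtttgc
EEF2, chr19:3985444-3985473, - strand: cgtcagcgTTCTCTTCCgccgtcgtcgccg
EDC4, chr16:67873042-67873071, + strand: aggTTCCgggagcctcggctcgtgggtgcc
MCM6, chr2:135876424-135876453, - strand: ggcggCgcgcgcaaagctgcagcgtctgga
The run measured 11 bases in RPS12, 14 in RPL26, 9 in RPS27, 8 in TPT1, 9 in EEF1A1 and 9 in EEF2. It measured 2 in RPL26L1, 2 in RPS27L and 2 in RPL7L1, the relatives of ribosomal protein genes, 4 in EDC4 and 1 in MCM6.

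For the ferritins, 30 bases of the leader are given from the GENCODE 29 transcripts (GRCh38, exonic, 5′ UTR). Capitals mark the bulged C and the CAGTGN loop of the iron-responsive element.
FTL, chr19:48965335-48965364, + strand: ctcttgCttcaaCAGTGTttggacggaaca
FTH1, chr11:61967573-61967602, - strand: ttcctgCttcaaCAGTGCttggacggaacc
The search asked for C, 5 bases, CAGTG followed by A, C or T, and 5 bases able to pair with the first 5, G with T included, on the sense strand. It found the element in 11 of 12137 leaders (0.091%).

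The ferritins were among the mRNAs most depleted from the heavy pool. FTL, the ferritin light chain (chr19:48965301-48966878), had 153682, 132693 and 139898 normalised counts in cytoplasmic libraries A, B and C and 24469, 24174 and 23459 in heavy-pool libraries A, B and C. All 3 heavy-pool values lay below all cytoplasmic ones, a difference of -2.56 ± 0.12 (5.9-fold lower, limma adjusted p = 4.45e-39). FTH1, the heavy chain (chr11:61959718-61967660), went from 320739, 282918 and 284294 in the cytoplasm to 55679, 64079 and 64422 in the heavy pool (-2.27 ± 0.13, adjusted p = 2.12e-31). The 3 pairs gave -2.53, -2.14 and -2.14, so the size varied with the letter while the groups stayed apart. Each ferritin lay far below other mRNAs of its coding length, FTL by -1.82 and FTH1 by -2.07 against the median of its length class (genes were divided into 10 classes of equal number by coding length).

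Most other iron genes on the list were called higher. Of 12 listed genes of iron storage, import and control, 9 were called higher and 2, the ferritins, lower. The median of the list was 0.51, and 0.01 against the length classes of its members, whose median coding length was 2176.5 bases. ACO1, an iron regulatory protein, had 1689, 1928 and 2152 normalised counts in the cytoplasm and 4792, 4514 and 4745 in the heavy pool (1.29 ± 0.11). Its partner IREB2 differed by 0.90 ± 0.12, NCOA4, the receptor that takes ferritin to lysosomes, by 0.97 ± 0.11, and TFRC, which imports iron, by 0.44 ± 0.11. The call of TFRC was lost in the fit of 18 within-letter differences over 6 days (0.44, adjusted p = 0.0651). TFRC carries its known elements in the 3′ UTR, outside the sequence searched. FBXL5, which marks IREB2 for decay, had a difference of 0.16 ± 0.13 that did not pass the test (adjusted p = 0.261), and with TMM scaling it was -0.00057. EPAS1, a hypoxia factor, was called higher as well (1.13 ± 0.12). Over all 11 genes whose leader matched, the differences ran from -2.56 to 1.27, with the ferritins at the bottom. Of the other 9, TMEM198 was called lower at low counts (-0.61 ± 0.26, adjusted p = 0.0294), PRPF18 (-0.33 ± 0.16), CCDC116 (-0.24 ± 0.34) and CHRNA10 (-0.23 ± 0.35) did not pass the test, and 5 were called higher, with GART (1.03 ± 0.11) and ADAR (1.27 ± 0.11) at the top. A match of these letters alone was thus found on both sides. The call of TMEM198 was lost without letter A or letter C (-0.36, adjusted p = 0.358), whereas PRPF18 was called lower with TMM scaling (-0.50, adjusted p = 0.0033), edgeR, DESeq2 or without letter C (-0.56, adjusted p = 0.00524).

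Ribosomal protein mRNAs were mostly depleted from the heavy pool. Of 85 listed genes, 81 were called lower and 1 higher, against 25.7% and 38.6% of all genes, and the median was -1.03 (-1.28, -0.95 and -0.84 in letters A, B and C). RPL12, of the large subunit, had 185595, 170989 and 150348 normalised counts in the cytoplasm and 33857, 38373 and 36800.4 in the heavy pool (-2.21 ± 0.12, adjusted p = 1.08e-32). RPS12, of the small subunit, had 73067, 59483 and 51883 and 13217, 14434 and 14335 (-2.12 ± 0.11). In both genes cytoplasmic library A was the highest and C the lowest of its group, the heavy-pool values differed less, and no groups overlapped. RPS29 (-1.70 ± 0.11), RPS20 (-1.92 ± 0.11) and RPL39 (-1.53 ± 0.11) were called lower too. Genes of the family with long reading frames stood at the upper end: RPL3 (1209 coding bases) had a difference of 0.03 ± 0.13 that did not pass the test (adjusted p = 0.873, groups overlapping), and RPL4 (1281 bases) was lower by a smaller amount (-0.41 ± 0.13), a call lost without letter B (-0.39, adjusted p = 0.142). Across the list the difference had a Spearman correlation of 0.64 with coding length over 85 genes, given as a description. Ribosomal protein genes have many processed pseudogenes, and reads that match several copies make single values uncertain.

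Some ribosomal protein genes have close relatives, and 4 such pairs are given here. RPL26 and RPL26L1 have reading frames of the same length, 435 bases. RPL26 had 3005, 2414 and 2047 normalised counts in the cytoplasm and 1003, 1099 and 858 in the heavy pool (-1.32 ± 0.12). RPL26L1 had 4026, 3839 and 3488 and 2891, 3107 and 3153 (-0.31 ± 0.11), a much smaller depletion in each of the 3 letters (-0.48, -0.31 and -0.15 against -1.58, -1.13 and -1.25). RPS27 and RPS27L share a frame of 252 bases, and their differences were -1.50 ± 0.12 and -0.91 ± 0.12. RPL7L1, which acts in ribosome assembly and is the single member called higher, had 7081, 8414 and 8579 in the cytoplasm and 14065, 14581 and 15047 in the heavy pool (0.86 ± 0.11), whereas RPL7 was called lower (-0.61 ± 0.13), a call lost in the fit of 18 differences (adjusted p = 0.0622) and over all 36 libraries (0.0695). RPL22 (-1.21 ± 0.11) and RPL22L1 (-1.36 ± 0.11) differed little from each other. These pairs were chosen after their values were seen, and the difference between relatives was not tested. The call of RPL26L1 was lost without letter A (-0.23, adjusted p = 0.121) or letter B (-0.31, adjusted p = 0.0939).

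A pyrimidine run at the annotated start was common in the family. A run of at least 7 pyrimidines within 5 bases of the start, on the sense strand, was present in 53 of 69 ribosomal protein genes matched in the RefSeq promoter table (76.8%), against 15.7% of all 27305 promoters. Ribosomal protein genes with such a run had a median difference of -1.07, and the 16 without it had -0.72. Against their length classes these medians were closer, -0.49 and -0.33. Outside the ribosomal proteins and TOP factors, 1499 protein-coding genes with such a run had a median of 0.27 and the others 0.28. The annotated start need not be the one used in these cells, and RPL12 itself has a run of 6 bases there, below the minimum.

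Translation factors with TOP mRNAs were split. Of 19 listed, 2 were called higher, 8 lower and 9 did not pass the test, with a median of 0.03 that became -0.13 with TMM scaling. TPT1, the translationally controlled tumour protein, had 177832, 177195 and 139383 normalised counts in the cytoplasm and 46009, 48564 and 48018 in the heavy pool (-1.79 ± 0.12). PABPC1, which binds poly(A) tails, had 122418, 137869 and 128135 and 48002, 46664 and 50536 (-1.42 ± 0.12), although its reading frame of 1908 bases is long. EEF1B2 (-0.94 ± 0.11), EEF1A1 (-0.50 ± 0.17) and RACK1 (-0.37 ± 0.13) were called lower too. The call of EEF1A1 was lost without letter B (-0.47, adjusted p = 0.195), and that of RACK1 without letter A (-0.24, adjusted p = 0.0593) or letter B (-0.41, adjusted p = 0.103). EEF2, the translocase, starts with a pyrimidine run like that of EEF1A1, yet had 215715, 206809.6 and 245658 in the cytoplasm and 255050.1, 253215 and 270589 in the heavy pool, a difference of 0.22 ± 0.14 that did not pass the test (adjusted p = 0.156, groups not overlapping). With each library scaled to its total EEF2 was called higher (0.21, adjusted p = 0.019). EIF3D (0.83 ± 0.11) and the karyopherin IPO5 (0.70 ± 0.11) were called higher.

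Initiation factors followed their size in part. The list of other initiation factors and mTOR pathway genes had 20 of 37 members higher and 8 lower (median 0.37). Among all protein-coding genes 46.3% were higher and 22% lower. The scaffold EIF4G1 (0.69 ± 0.11) and the mTOR partner RPTOR (1.14 ± 0.11) were higher. The small repressors of cap binding were lower: EIF4EBP1 had 10607, 10216 and 10683 normalised counts in the cytoplasm and 3476, 3752 and 3974 in the heavy pool (-1.49 ± 0.11), and EIF4EBP2 differed by -1.21 ± 0.11. The small GTPase RHEB, which activates mTOR, was lower by a like amount (-1.43 ± 0.11). EIF5B, the GTPase that joins the subunits, was lower despite a frame of 3660 bases (-1.16 ± 0.13), but its pairs gave -1.96, -1.41 and -0.11, so letter C showed little of it, and the call was lost in the fit of 18 differences (adjusted p = 0.137) and over all 36 libraries (0.0888). Among eIF3 subunits 6 of 13 were higher, with EIF3B (1.23 ± 0.11) at the top, and 4 lower, among them EIF3E (-0.49 ± 0.11) and EIF3H (-0.50 ± 0.11), which is near the shares of all genes (38.6% and 25.7%). EIF3E was not called without letter B (-0.36, adjusted p = 0.0755). In the fit of 18 differences neither EIF3E (-0.49, adjusted p = 0.267) nor EIF3H (-0.50, adjusted p = 0.117) was called. Of 14 termination and rescue factors 7 were higher and 2 lower, against 46.3% and 22% of protein-coding genes. GTPBP1, a GTPase of ribosome quality control, was at the top (1.38 ± 0.12), and DENR, which recycles small subunits, at the bottom (-1.31 ± 0.11).

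Coding length was the measured feature most closely related to the difference. Across 12390 protein-coding genes with a GENCODE 29 coding length, the Spearman correlation between difference and length was 0.50 (0.52, 0.43 and 0.47 in letters A, B and C). Genes share libraries and are not independent, so this is a description. The deviations of single libraries from their group means also correlated across genes with log2 coding length. In the cytoplasm r ran from -0.27 (library A) to 0.21 (library C), and in the heavy pool from -0.19 (B) to 0.13 (C). The part of these deviations in the relation to length was not tested. With the genes in 5 classes of equal number, the class with the shortest frames (up to 744 bases) had a median difference of -0.48, and the following classes had 0.10, 0.34, 0.50 and, for the longest, 0.60. In the shortest class 56.4% of genes were called lower and 12.6% higher, and in the longest 5.29% and 69.1%. The medians rose steeply up to about the middle of the range and little beyond it: of 10 classes, the last 3 had 0.52, 0.58 and 0.61.

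**Figure D2:**
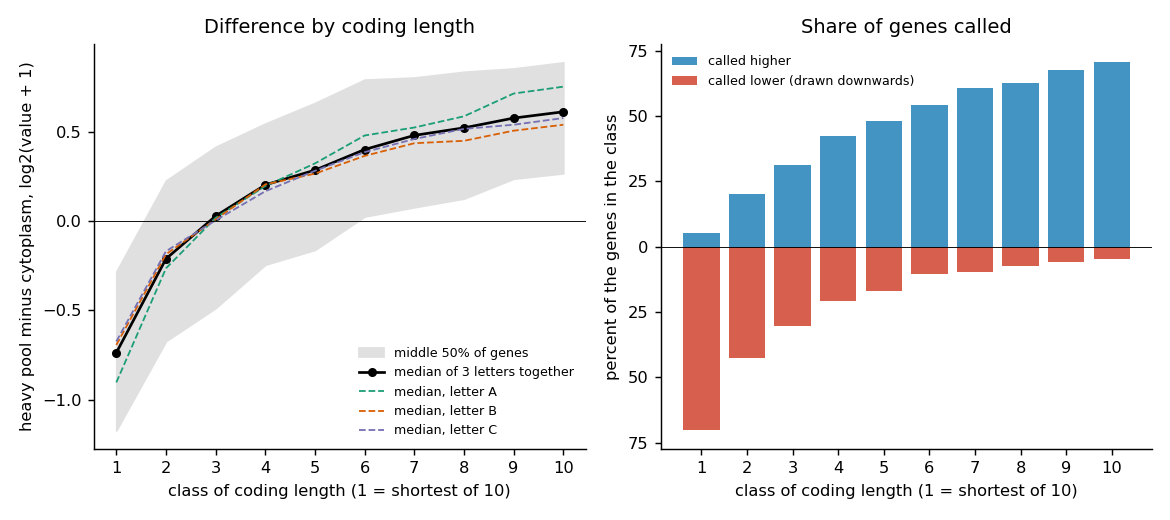
Left, heavy pool minus cytoplasm on the log2(value + 1) scale by class of coding length (10 classes of equal number), with the median of all letters (black), each letter's median (dashed) and the middle 50% of genes (grey). Right, percent of the genes in each class called higher (up) or lower (down). The median runs from -0.74 in the shortest class to 0.61 in the longest, and the letters follow the same course.

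Other features showed less. Transcript length had a Spearman correlation of 0.37 with the difference, and 3′ UTR length 0.15. After the median of each gene's length class was subtracted, these fell to 0.06 and 0.10. The mean level of a gene at D0 had a correlation of 0.14, which rose to 0.18 after the same subtraction. Over 10 classes of level, the median against the length class went from -0.21 in the lowest to 0.21 in the highest. The share called higher went from 12.2% to 59.7%. The length of the 5′ UTR was unrelated: its correlation was 0.0045, and the medians of the 5 length classes lay between 0.26 and 0.27. Genes with no upstream ATG in the leader had a median of 0.28, and those with 3 or more 0.25. GC content had a hump: the median was 0.08 in the class lowest in GC, of 5, 0.40 in the middle and 0.24 in the highest. This feature differed between letters, with 0.11, -0.08 and 0.23 in the lowest class for A, B and C, and the deviations of cytoplasmic library B from its group mean correlated across genes with GC at r = -0.34. The part of that library in the GC pattern was not tested beyond these values.

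Complexes built of small proteins showed how far length went with the position of a gene. Nuclear-encoded subunits of the respiratory chain had 58 of 82 members called lower and 15 higher (median -0.72, median coding length 409.5 bases), and within the list the difference followed length with a Spearman correlation of 0.79. ATP5ME, a small subunit of ATP synthase with a frame of 207 bases, had 9119.6, 5639 and 4967 normalised counts in the cytoplasm and 1669.8, 1842 and 1738 in the heavy pool (-1.86 ± 0.12). ATP5F1B, the catalytic subunit of the same enzyme with 1587 bases, had 53313, 53165 and 55287 and 113176, 115849 and 121496 (1.12 ± 0.12). So subunits of a single enzyme lay on opposite sides, and neither gene's groups overlapped. ATP5F1A (1.09 ± 0.11) was on the side of ATP5F1B, and UQCRQ (-1.74 ± 0.11), UQCR10 (-1.71 ± 0.11) and ATP5F1E (-1.83 ± 0.11) on that of ATP5ME. Complex II was of the same kind, with SDHA (1992 bases) at 1.05, SDHB (840) at 0.66, SDHC (507) at 0.28 and SDHD (477) at -0.34, the last called lower and the others higher. SDHC lost its call with TMM scaling (0.11, adjusted p = 0.381) or without letter B (0.24, adjusted p = 0.21), and SDHD without letter B (-0.28, adjusted p = 0.148). Mitochondrial import channels held the tightest relation among the lists (Spearman 0.92 over 21 genes), from TOMM5 (-1.89 ± 0.12, 153 bases) to TOMM70 (0.86 ± 0.11, 1824 bases). For Sm and LSm proteins, the small cores of the spliceosome, 14 of 21 were lower and 2 higher, with SNRPG (-1.45 ± 0.11) and SNRPD2 (-1.37 ± 0.11) lower and SNRNP70 (0.50 ± 0.11), a longer member, higher.

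Once set against genes of like length, the groups separated in another way. Each gene's difference was compared with the median of its length class, which includes the gene itself. Ribosomal proteins then still lay below, with a median of -0.47 (-0.64, -0.44 and -0.32 in letters A, B and C). Respiratory chain subunits were about as short (median 409.5 against 453 bases) and less depleted before (-0.72 against -1.03). Against their length classes they lay at -0.03 (-0.23, 0.04 and 0.11). Mitochondrial ribosomal proteins lay at 0.19 and proteasome subunits at 0.41 (0.29, 0.36 and 0.60). Among proteasome subunits 27 of 36 were called higher, with PSMD2 of the cap (1.38 ± 0.11) at the top, and 3 lower, with PSMA7 of the core (-0.70 ± 0.11) at the bottom. SR splicing factors, short as well (816 bases), had 11 of 13 higher and a value of 0.41 against their length classes. SRSF2 had 21506, 19028 and 19313 normalised counts in the cytoplasm and 29703, 32348 and 35659 in the heavy pool (0.71 ± 0.11), and SRSF7 differed by 0.72 ± 0.11. SRSF9 was the exception among them (-0.58 ± 0.11). No test was made of the difference between lists, and the level of the genes was not taken out.

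**Figure D3:**
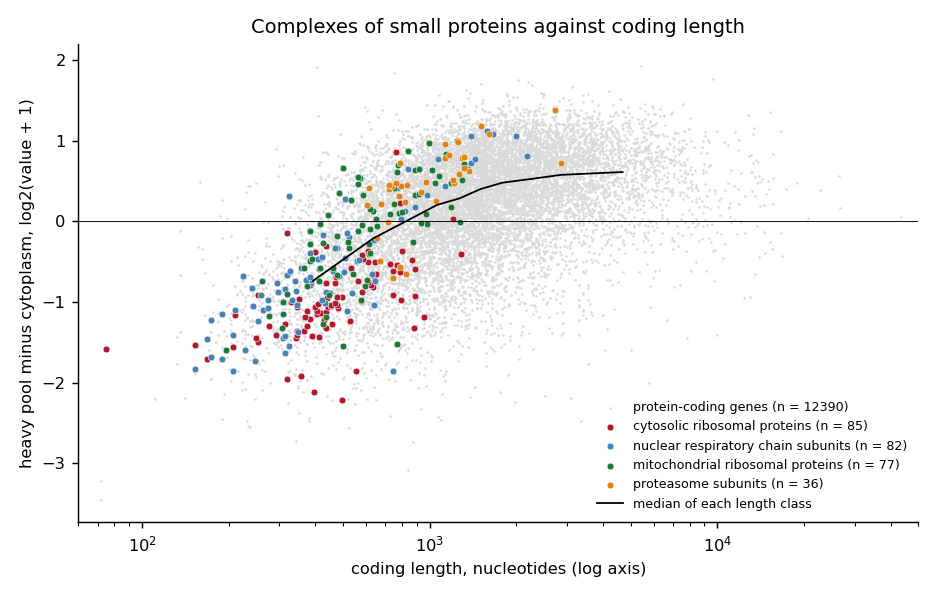
Heavy pool minus cytoplasm, on the log2(value + 1) scale, against coding length (log axis) for all protein-coding genes (grey) and 4 complexes. The black line joins the medians of the 10 classes of coding length. Ribosomal proteins (median -0.47 against their length classes) sit below the line, respiratory chain subunits (-0.03) around it and proteasome subunits (0.41) above it.

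Several genes stood far from others of their length, and the following were chosen for it after their values were seen. GTF3A, the 5S rRNA transcription factor TFIIIA (also among the 12 lowest genes of all), had 10001, 9887 and 9209 normalised counts in the cytoplasm and 1616, 1686 and 1986 in the heavy pool (-2.46 ± 0.11, -2.66 against its length class). YBX1, a Y-box protein that packs mRNA, was abundant in the cytoplasm (194165, 186007 and 164466) and depleted (39859.9, 43960.4 and 48105, difference -2.05 ± 0.13). CCNI, a cyclin, differed by -1.98 ± 0.11, and CAMTA1, a transcription factor with a frame of 5019 bases, by -1.59 ± 0.13. All 4 were lower in every letter with no overlap of groups. KTN1, a receptor for kinesin at the endoplasmic reticulum, had -2.18, -1.89 and -0.73 in the 3 letters. On the other side stood short genes that were called higher. CDKN1A, the cyclin-dependent kinase inhibitor p21 with a frame of 492 bases, had 7009, 6583 and 7739 in the cytoplasm and 10791, 10347 and 9599.7 in the heavy pool (0.53 ± 0.11, 1.27 against its length class). GADD45B (0.82 ± 0.12), a stress-response protein, CDKN1B (0.74 ± 0.12), the inhibitor p27, RHOB (0.95 ± 0.11), a small GTPase, and UBE2H (0.88 ± 0.11), a ubiquitin-conjugating enzyme, were alike. Of 1616 genes with frames under 600 bases, 130 were called higher and 1063 lower. Of 1705 with frames over 3000 bases, 1196 were higher and 81 lower.

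Proliferation genes were largely enriched in the heavy pool. Of 50 DNA replication genes 39 were called higher and 5 lower (median 0.69, and 0.30 against their length classes). MCM6, a subunit of the replicative helicase, had 4994, 5572 and 5512 normalised counts in the cytoplasm and 13247, 12642 and 14765 in the heavy pool (1.34 ± 0.11, 2.53-fold). MCM2 (1.30 ± 0.11), MCM4 (1.16 ± 0.11), MCM7 (1.16 ± 0.11) and RPA1 (1.20 ± 0.11), the large subunit of the single-strand binding protein, were close to it. The members called lower with the largest differences, POLE4 (-1.12 ± 0.16) and RPA3 (-0.87 ± 0.12), are small subunits of complexes whose large ones were higher. In the mitosis list 33 of 53 were higher and 10 lower, against 46.3% and 22% of protein-coding genes. The list had a median of 0.54, and 0.25 against the length classes of its members. PRC1, which bundles spindle microtubules, led the list (1.56 ± 0.15, from 261, 307 and 353 to 872, 828 and 1006). CCNB1 (1.05 ± 0.11), the mitotic cyclin, CDCA8 (1.12 ± 0.11) and BUB1B (1.09 ± 0.11) were higher, and CENPA (-1.18 ± 0.12), the centromeric histone, and CKS1B (-1.06 ± 0.11), a small partner of cyclin-dependent kinases, were lower.

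Tubulins and actin were enriched. Of 15 tubulins 11 were called higher and 1, TUBE1 (-0.44 ± 0.12), lower (median 0.79, and 0.50 against their length classes). TUBA1B had 150439, 136382 and 166857 normalised counts in the cytoplasm and 289452, 306985 and 347049 in the heavy pool (1.06 ± 0.14), and TUBA1C (1.05 ± 0.13), TUBB4B (0.98 ± 0.12) and TUBB (0.79 ± 0.13) moved alike. Tubulin genes share long identical stretches, which makes the split between them uncertain. ACTB had 254537, 228209 and 261987 and 290311, 320464 and 344751 (0.36 ± 0.14), with no overlap. This call was lost with TMM scaling (0.19, adjusted p = 0.312), without letter B (0.29, adjusted p = 0.344) or without letter C (0.34, adjusted p = 0.077), and that of TUBE1 without letter B (-0.36, adjusted p = 0.0698). GAPDH, often used as a reference, had 446426, 404815 and 413714 in the cytoplasm and 378510.1, 428962 and 422054 in the heavy pool, and its difference of -0.04 ± 0.15 did not pass the test (adjusted p = 0.824). Large cytoskeletal proteins had 18 of 21 members higher (median 0.60, and 0.09 against their length classes). The single member called lower was DYNC1H1, the heavy chain of dynein, with a frame of 13938 bases: it had 5727, 6030.4 and 6247 in the cytoplasm and 4588, 4165 and 4493 in the heavy pool (-0.44 ± 0.11). Its call was lost in the fit of 18 differences (adjusted p = 0.129) and over all 36 libraries (0.177). FLNA (1.15 ± 0.11), an actin crosslinker, and ACTN4 (0.95 ± 0.11) were among the higher ones.

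**Figure D4:**
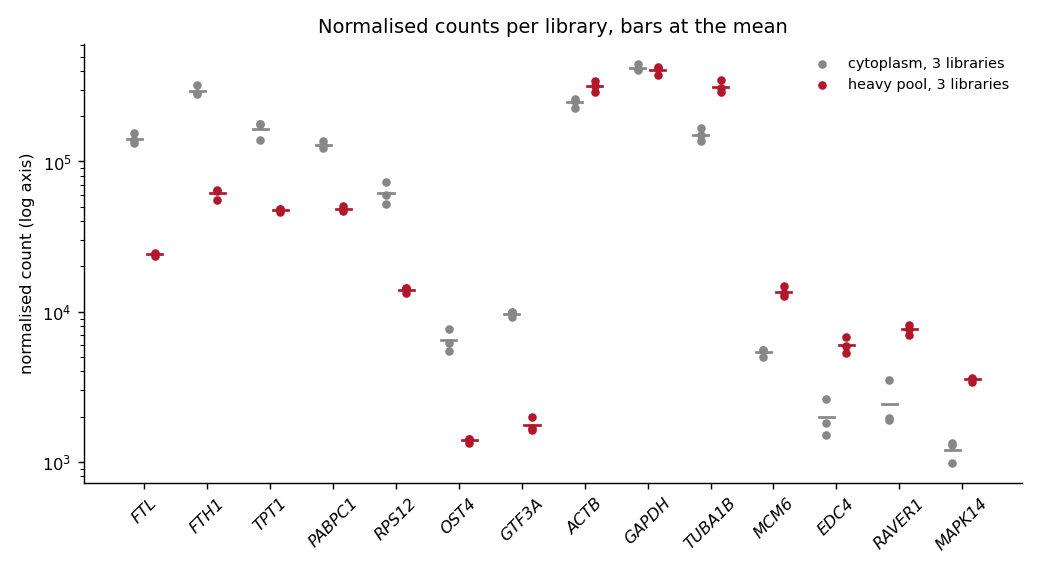
Normalised counts (log axis) of 14 genes in each of the 3 cytoplasmic (grey) and 3 heavy-pool (red) libraries at D0, with bars at the mean. FTL, FTH1, TPT1, PABPC1, RPS12, OST4 and GTF3A are lower in every heavy-pool library, GAPDH overlaps, and ACTB, TUBA1B, MCM6, EDC4, RAVER1 and MAPK14 are higher in every one.

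Enzymes that feed translation and the factories that build ribosomes lay on the enriched side. Cytosolic aminoacyl-tRNA synthetases, which charge tRNAs, had 19 of 20 members called higher and 0 lower (median 0.78, and 0.28 against their length classes). They were led by MARS1 (1.12 ± 0.11) and SARS1 (1.11 ± 0.11). Their mitochondrial counterparts had 13 of 16 higher and 0 lower (median 1.00, and 0.57 against their length classes). SARS2 (1.37 ± 0.14), MARS2 (1.37 ± 0.13) and EARS2 (1.27 ± 0.11) were at the top. For ribosome biogenesis 44 of 51 were higher and 2 lower (median 0.77). POLR1B (1.28 ± 0.11), a subunit of RNA polymerase I, and TSR1 (1.09 ± 0.11) were higher, and NOP58 (-0.42 ± 0.11) and the very long MDN1 (-0.43 ± 0.12) were lower. Without letter B neither was called (NOP58 -0.25, adjusted p = 0.179, MDN1 -0.28, adjusted p = 0.166), nor was NOP58 without letter A (-0.32, adjusted p = 0.0579). So genes of ribosome assembly and genes of the ribosome itself lay on opposite sides of 0, with medians of 0.77 and -1.03. Their median coding lengths differed as well, 2010 and 453 bases. Against their length classes the medians were closer, 0.29 and -0.47. Glycolysis had 23 of 27 members higher and 0 lower (median 0.74, and 0.34 against their length classes). HK1 (1.12 ± 0.11), PGK1 (1.10 ± 0.11) and PFKM (1.08 ± 0.11) were near the top. The chaperonin subunits CCT7 (1.05 ± 0.12) and CCT4 (0.98 ± 0.11) were higher and the small cofactors PFDN4 (-1.02 ± 0.12) and HSPE1 (-0.96 ± 0.12) lower, in a chaperone list of 18 higher and 7 lower among 29.

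**Figure D5:**
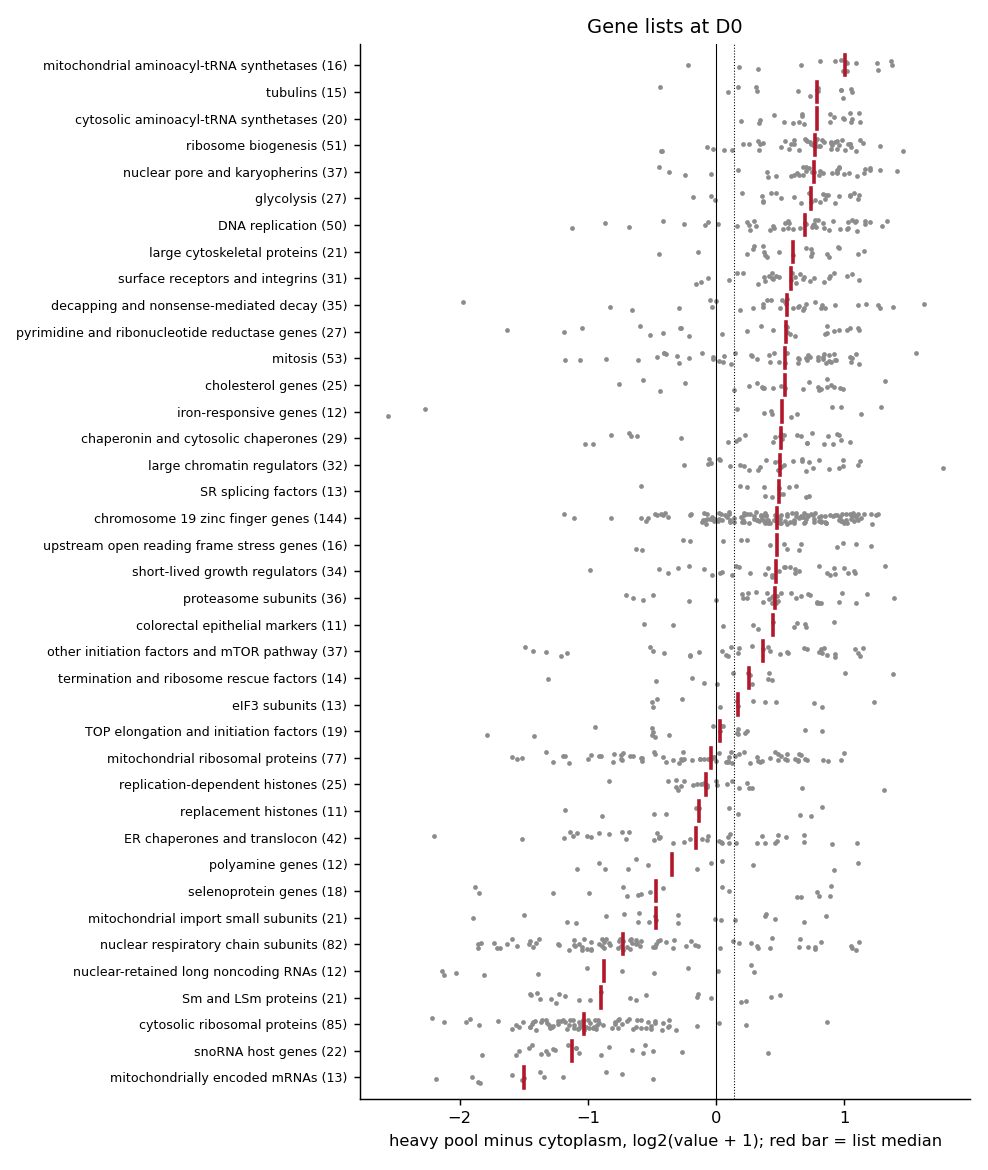
Heavy pool minus cytoplasm, on the log2(value + 1) scale, for the members (grey points) of the lists plotted, each with at least 10 listed genes, numbers listed in brackets, ordered by the list median (red bars). The dotted line is the median of all genes (0.14). Mitochondrially encoded mRNAs (median -1.50) stand at one end and mitochondrial aminoacyl-tRNA synthetases (1.00) at the other.

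Genes of the secretory route were mixed. In the list of endoplasmic reticulum chaperones and translocon 11 of 42 were called higher and 20 lower (median -0.16). Among all protein-coding genes 46.3% were higher and 22% lower. OST4, the smallest subunit of the oligosaccharyltransferase (111 coding bases), had 7694, 6212 and 5444 normalised counts in the cytoplasm and 1334, 1429 and 1412 in the heavy pool (-2.20 ± 0.11). SEC61G of the translocon (-1.51 ± 0.11) and SRP9 of the signal recognition particle (-1.19 ± 0.11) were lower, and SRP68 (1.10 ± 0.11) and the receptor SRPRA (0.90 ± 0.11) higher. Surface receptors and integrins, whose mRNAs are translated on that membrane, had 25 of 31 higher and 0 lower (median 0.59, and -0.03 against their length classes), CELSR3 (1.12 ± 0.20) and IGF1R (1.02 ± 0.15) among them. For cholesterol genes 19 of 25 were higher, LSS (1.32 ± 0.11) most, and INSIG1, the short sensor that holds back sterol synthesis, was lower (-0.75 ± 0.12).

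Decay factors included members at both ends. Of 35 decapping, deadenylation and nonsense-mediated decay genes 27 were called higher and 4 lower (median 0.56, and 0.06 against their length classes). EDC4, the decapping scaffold, had 1501, 1824 and 2605 normalised counts in the cytoplasm and 5868, 5285 and 6727 in the heavy pool (1.62 ± 0.11, 3.08-fold), and cytoplasmic library C was the highest of its group. SMG8 (1.38 ± 0.12), EDC3 (1.28 ± 0.11) and DCP1A (1.26 ± 0.12) were higher. CNOT7, a deadenylase, was the opposite: 7352, 8283 and 8543 in the cytoplasm and 2071, 1947 and 2126 in the heavy pool (-1.97 ± 0.11). Nuclear pore genes and karyopherins had 32 of 37 higher, NUP98 (1.41 ± 0.11) most, and RANBP2 (-0.36 ± 0.13) and SEH1L (-0.44 ± 0.11) lower. The list median was 0.76, and 0.36 against the length classes. RANBP2 was not called without letter A (-0.34, adjusted p = 0.0635) or letter B (-0.17, adjusted p = 0.417). Large chromatin regulators had 21 of 32 higher and 0 lower (median 0.50), and against their length classes they lay at -0.11.

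Stress and growth regulators had members on both sides. In the list of genes with upstream open reading frames 9 of 16 were called higher and 3 lower. Among all protein-coding genes 46.3% were called higher and 22% lower, so the list did not stand far from the background. ATF4, the effector of the integrated stress response, had 39101, 37381 and 38442 normalised counts in the cytoplasm and 30752, 33203 and 32092 in the heavy pool (-0.26 ± 0.11, adjusted p = 0.0379). DDIT3, its target, was lower (-0.58 ± 0.21, groups overlapping), and PPP1R15A (0.65 ± 0.11) and PPP1R15B (1.09 ± 0.11), which reverse the same response, were higher. The call of ATF4 was lost when any letter was left out (adjusted p of 0.0873, 0.155 and 0.0644 without A, B and C), and that of DDIT3 without letter A (-0.39, adjusted p = 0.163) or letter B (-0.54, adjusted p = 0.102). MYC had 17516, 17316 and 19506 and 32804, 33549 and 36359 (0.92 ± 0.11). DUSP6 (1.32 ± 0.11), MCL1 (1.07 ± 0.11) and FOS (1.03 ± 0.11) were higher in a list of short-lived regulators with 21 of 34 higher and 4 lower, JUND (-0.98 ± 0.11) lowest. MDM2, a ubiquitin ligase, had a difference of -0.21 ± 0.12 that did not pass the test (adjusted p = 0.111). With TMM scaling (-0.37, adjusted p = 0.00262) or without letter A (-0.40, adjusted p = 0.0076) MDM2 was called lower.

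Polyamine and selenoprotein genes showed opposite partners. ODC1, the rate-limiting enzyme of polyamine synthesis, had 34052, 36446 and 42569 normalised counts in the cytoplasm and 18686, 19272 and 22102 in the heavy pool (-0.91 ± 0.11). AMD1 (-0.86 ± 0.11), SRM (-1.09 ± 0.11) and the antizyme OAZ1 (-0.63 ± 0.11) were lower as well. AZIN1, the antizyme inhibitor and a relative of ODC1 with a frame of 1344 bases against 1383, had 6375, 7765 and 8267 and 13664, 13568 and 15064 (0.92 ± 0.11). So 2 relatives of like length lay on opposite sides, with no overlap in either. The list had 3 of 12 members higher and 6 lower, against 46.3% and 22% of protein-coding genes. Of 18 selenoproteins 10 were lower, GPX4 (-1.88 ± 0.11), which removes lipid peroxides, and SELENOW (-1.85 ± 0.12) most, and 6 higher, with TXNRD1 (0.90 ± 0.11) and TXNRD3 (0.89 ± 0.14), the thioredoxin reductases, at the top. Among nucleotide genes, TYMS, the target of 5-FU, was slightly higher (0.24 ± 0.11, adjusted p = 0.0483), in a list of 17 higher and 8 lower among 27. The call of TYMS was lost with TMM scaling (0.08, adjusted p = 0.585) and without letter B (0.27, adjusted p = 0.19) or letter C (0.19, adjusted p = 0.169).

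Histones and zinc finger genes differed in how many members were called. Of 25 replication-dependent histone genes, whose mRNAs mostly lack a poly(A) tail, 23 did not pass the test and 2 were higher (median -0.08, and 0.64 against their length classes, since their frames are short). The libraries were made from poly(A) RNA, and the part of that step in the histone values was not tested. H2AZ1 (-0.49 ± 0.11) and H2AZ2 (-0.89 ± 0.11) were lower and H1-10 (0.82 ± 0.11) and MACROH2A2 (0.74 ± 0.11) higher among replacement histones. Zinc finger genes of chromosome 19, all protein-coding, had 73 of 144 members higher and 7 lower, against 46.3% and 22% of protein-coding genes. The share called higher was thus near the background, and the share called lower was below it. Their median was 0.48, and 0.02 against their length classes.

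The most enriched genes of all came from several functions. By the rule for the 12 highest, RAVER1, a splicing co-regulator, had 1888, 1954 and 3479 normalised counts in the cytoplasm and 7719, 6951 and 8153 in the heavy pool (1.70 ± 0.11). MAPK14, the stress kinase p38, had 981, 1297 and 1336 and 3398, 3564 and 3637 (1.56 ± 0.12) and stood 1.36 above its length class. CMTR1, which methylates the mRNA cap, differed by 1.59 ± 0.12, NEU3, a sialidase, by 1.60 ± 0.14 and AMER1, a Wnt regulator, by 1.57 ± 0.21. The remodeller SRCAP (1.77 ± 0.21), NOS1AP (1.70 ± 0.23) and BCKDHA (1.63 ± 0.20) were listed at low counts in the cytoplasm, 69, 77.4 and 98.8 for SRCAP. Each overlaps another listed gene, as do 7 of the 24 genes at both extremes, and how shared reads were counted is not stated. At the other end, PPDPF, a pancreatic progenitor factor, had 33885, 23979 and 26361 in the cytoplasm and 3757, 4444 and 4383 in the heavy pool (-2.73 ± 0.11). BEND6 (-3.09 ± 0.24) holds FTH1P15, a ferritin heavy chain pseudogene, on the same strand, and that pseudogene differed by -2.56 ± 0.30, so the part of ferritin reads in the value of BEND6 was not tested. MTRNR2L8 and MTRNR2L12 (-3.22 ± 0.12) copy the mitochondrial 16S rRNA, and CSAG2 and CSAG3 are near-identical to each other, so these values are uncertain.

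RNAs without a reading frame for cytosolic ribosomes were depleted, with a spread. Of 1413 long noncoding RNAs 497 were called lower and 117 higher (median -0.42), against 2724 and 5736 of 12399 protein-coding genes (median 0.27). MALAT1, a nuclear RNA, had 2014, 2166 and 1308 normalised counts in the cytoplasm and 297, 492 and 474 in the heavy pool (-2.12 ± 0.14), and NEAT1, the scaffold of paraspeckles, differed by -2.03 ± 0.17. In the hand-written list of snoRNA host genes, spliced RNAs with short frames, 20 of 22 were lower (median -1.12). The single member called higher was CYTOR (0.41 ± 0.16), whose place among host genes rests on that list alone. The call of CYTOR was lost with TMM scaling (0.24, adjusted p = 0.182) and without letter B (0.37, adjusted p = 0.137) or letter C (0.34, adjusted p = 0.124). GAS5 had 7478, 7714 and 5784 and 2636, 2573 and 2375 (-1.46 ± 0.11), and SNHG6 (-1.82 ± 0.11) and SNHG29 (-1.54 ± 0.11) were lower by more. The depletion was incomplete: the heavy pool still held GAS5 at 2528 mean normalised counts against 6992. The lowest value of all genes was that of BCYRN1, a short cytoplasmic RNA (-3.91 ± 0.12). Of 1337 processed pseudogenes 606 were lower (median -0.54), and reads of their parent genes may be among theirs.

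Mitochondrially encoded mRNAs, which are read inside the organelle, were called lower in 13 of 13 cases (median -1.50). With DESeq2 on the recovered reads MT-ATP6 (adjusted p = 0.0577), MT-ATP8 (0.259), MT-CO2 (0.163) and MT-ND3 (0.267) were not called, nor was MT-ATP8 without the replicate block (-0.49, adjusted p = 0.0624). MT-ND4, a subunit of complex I, had 325409, 260872 and 202399 normalised counts in the cytoplasm and 45573, 55552 and 72389 in the heavy pool (-2.18 ± 0.14). MT-CO1, of complex IV, had 482261, 421847 and 396625 and 129647, 149219 and 185519.96 (-1.50 ± 0.15). In both genes cytoplasmic library A was the highest of its group and C the lowest, and the reverse held in the heavy pool. The list medians were accordingly -2.08, -1.50 and -0.79 in letters A, B and C. The groups of MT-CO2, MT-ND3 and MT-ATP8 overlapped. Without letter A, MT-ND3 (-0.20, adjusted p = 0.378) and MT-ATP8 (-0.04, adjusted p = 0.853) were not called, nor was MT-ATP8 without letter B (-0.39, adjusted p = 0.0646). Mitochondria had been pelleted before the gradient, and the part of that step in these values was not tested.

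The D0 difference was then set against the mean of the 5 treated days. Heavy pool minus cytoplasm was taken within each letter, and these differences were fitted by day with no term for the letter. D0 was thus not paired with the treated days of the same letter. A letter's differences on several days were treated as independent. The polysome association of 906 genes (5.7% of those tested) was called higher at D0 and that of 341 (2.15%) lower. Drug and time in culture cannot be told apart here. These counts rested on single letters and on the scaling: without letter B they were 13 and 1, without letter C 13 and 0, and with each library scaled to its total 59 and 1483. Among mitochondrially encoded mRNAs, 12 of 13 were called less depleted at D0 than later (median of the difference 2.46) and 12 under total scaling, 7 without letter B and 8 without letter C. For tubulins 11 of 15 were called more associated at D0 (median 0.77). This became 5 with total scaling, and 0 without letter B or without letter C. Cytosolic synthetases had 11 of 20 called, 0 with total scaling, 4 without letter A, and 0 without letter B or without letter C.

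The order of genes at D0 resembled that of the early treated days more than that of the late ones. Across genes the D0 difference had a Spearman correlation of 0.72 with that of D1, 0.76 with D2 and 0.79 with D7, but of 0.01 with D14 and -0.09 with D16, as a description over all genes in separate libraries. Coding length went with the difference at 0.50 on D0 and 0.46 on D7, and at -0.41 on D14 and -0.32 on D16. Ribosomal proteins had medians of -1.03 on D0, -1.80 on D1, -1.33 on D2, -2.07 on D7, -0.09 on D14 and -0.33 on D16. The SD of the difference over genes was 0.76 on D0 and 0.42 and 0.36 on D14 and D16, so the late cytoplasmic and heavy libraries were more alike than those of D0.

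The main limits are that 3 letters stand behind each value and that limma gave the spread typical of a gene's level the weight of 114 degrees of freedom against 2 of the gene's own, so the standard errors follow the level more than the gene's replicates and very small p-values rest on that. Of the 10213 called genes, 494 had groups that overlapped, among them DDIT3, NOP58 and RANBP2. Under edgeR's quasi-likelihood test on the recovered reads 4796 genes were higher and 5024 lower, and in a fit over all 36 libraries without the block 4249 and 3031. Further named genes whose calls were lost in the fit of 18 differences were ACTB, ATF4, CYTOR, EPCAM, KTN1, MDN1, MT-ATP8, MT-ND3, NOP58, RACK1, RANBP2, RPL26L1, RPL4, SDHC, SDHD, TMEM198 and TYMS.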

How the data were processed

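The authors deposited a table of 15891 genes by 54 columns, of which 36 match libraries of the series and 18 of no sample here were not used. Per the submitters' processing notes, FastQC 0.11.9, cutadapt 3.2, STAR 2.7.9a, Subread 2.0.1 and DESeq2 1.30.1 were used with the build GRCh38. The strand setting and the annotation are not given in the sources used here. Libraries were made from poly(A) RNA with a kit that marks strand by dUTP, per the labels' protocols. The deposited values are a signal of gene counts divided by 1 size factor per library. Steps in the low values gave whole reads for 100% of values within 0.01, and no value is below 1.00, so every listed gene has reads in every library and no limit for a count of 0 is given. The 6 libraries at D0 held 46.7 to 54.5 megareads, which limits the precision of weakly expressed genes.

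From the deposited values, log2(value + 1) was fitted with limma 3.58.1 (lmFit, eBayes with trend; R 4.3.3) over the 6 libraries at D0, with fraction and letter. For the treated days, 18 within-letter differences were fitted by day, and D0 was set against the mean of 5 days. The letter comes from the labels' batch. The deviations of same-letter libraries from their group means correlated across genes at -0.05, -0.01 and -0.01 at D0, so these values do not show that letters deviate together, and no 2 libraries were identical. Symbols for 15856 genes came from a name table, and 15799 genes were in GENCODE 29, from which coding lengths (12390 genes, 1 transcript per gene) were taken. Gene lists were written by hand. The comparison, its lists and the named genes were chosen with earlier results of these data known. Named were the 12 highest and 12 lowest genes that were called, code for protein, reach 100 normalised counts on average and keep their sign in every letter, in each list up to 6 called members with the largest difference and up to 2 of the opposite direction, a fixed set of familiar genes, and for the treated days the 8 largest in each direction. Named outside it, after their values were seen, were the genes whose leader held the iron element, relatives of ribosomal protein genes, complex II, genes far from others of their length, RPL3, RPL4, RPL39, FBXL5, FTH1P15 and BCYRN1. The fits were tested on simulated counts with known changes. Alternatives were the pseudocount, a filter on low values, other scalings, edgeR 4.0.16, DESeq2 1.42.0, other sets of libraries and leaving out each letter.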

Additional observations from a re-analysis of the deposited data

Results flagged for a closer look

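The polysome association of 16 genes at D0 differed from the mean of the treated days by the test of that difference (limma on within-letter differences, Benjamini-Hochberg over all genes), and these were the 8 largest in each direction among genes that were called, code for protein, reach 100 normalised counts on average and keep their sign in every letter. On the D0 side of higher association all 8 were mitochondrially encoded: MT-ATP8 (3.21 ± 0.29 on the log2 scale), MT-ND3 (3.18 ± 0.37), MT-ND2 (3.05 ± 0.27), MT-CO2 (2.91 ± 0.36), MT-ND4L (2.78 ± 0.28), MT-ND1 (2.54 ± 0.26), MT-ND4 (2.46 ± 0.27) and MT-ATP6 (2.19 ± 0.29). On average over the letters, each was depleted from the heavy pool at D0 and more so later. MT-ND4 had -2.18 at D0 and -4.64 over the treated days. The D0 groups of MT-CO2, MT-ND3 and MT-ATP8 overlapped. Without letter A the D0 difference was -0.20 for MT-ND3 and -0.04 for MT-ATP8. On the other side stood DYNLT3 (-1.91 ± 0.51), a dynein light chain, SNX10 (-1.89 ± 0.47), a sorting nexin, BEND6 (-1.71 ± 0.48), FGFR1OP2 (-1.66 ± 0.41), IER3IP1 (-1.60 ± 0.30), SCOC (-1.59 ± 0.34), SMIM15 (-1.58 ± 0.29) and TMEM123 (-1.52 ± 0.36). DYNLT3 had -2.06 at D0 and -0.16 over the treated days. Of these 16 genes 7 kept the call with any letter left out. DYNLT3, SNX10, BEND6, FGFR1OP2 and TMEM123 lost the call whichever letter was left out, IER3IP1, SCOC and MT-ATP6 without letter B or letter C, and SMIM15 without letter C. Without letter B, DYNLT3 had -1.23 (adjusted p = 0.319) and MT-ATP6 2.36 (adjusted p = 0.0649). The 7 that kept it are mitochondrially encoded. D0 was also set against D1, D2 and D7 alone, an alternative chosen after seeing the data. There DYNLT3, SNX10, BEND6, FGFR1OP2, IER3IP1, SCOC and TMEM123 were not called (limma adjusted p from 0.0849 to 0.16).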

How the results depend on the processing

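At D0 the counts of higher and lower genes stayed within 1.5 times the main ones under all 13 alternatives: 4112 to 6141 higher and 2971 to 5024 lower. Without the replicate block they were 6132 and 4074, with TMM scaling 4812 and 5020, with edgeR 4796 and 5024, and with DESeq2 4634 and 4390. The share of calls that were higher was 60.1% in the main fit and 48.9% with TMM. Leaving out a letter gave 5234 to 5727 higher and 3357 to 3844 lower genes. For D0 against the treated days, no replicate block gave 1041 and 348, total scaling 59 and 1483, and leaving out a letter 13 to 313 and 0 to 165 (without letter C, 0 lower). Against D1, D2 and D7 alone, an alternative chosen after seeing the data, 379 were higher and 42 lower. The shortest class of coding length had -0.48 with 5 classes and -0.74 with 10, by construction a narrower class. Of 546 medians of lists under alternatives, 8 in 3 lists changed sign: TOP factors (0.03) went to -0.13 with TMM and edgeR, -0.11 with DESeq2, -0.05 without letter B and -0.13 without letter C. Replication-dependent histones (-0.08) went to 0.06 without letter A or letter B, and mitochondrial ribosomal proteins (-0.04) to 0.04 without letter A. Of 2574 differences of 198 named genes under alternatives, 2462 kept direction and call, 95 lost the call, 9, of EEF2, MDM2 and PRPF18, gained one and 8, of genes that did not pass the test, changed sign. RPL3 went to -0.14 with TMM and edgeR, -0.12 with DESeq2 and between -0.044 and 0.10 with a letter left out, GAPDH between -0.10 and 0.056, and CHRNA10 between -0.63 and 0.0078. FBXL5 went to -0.00057 with TMM and -0.00066 with edgeR. Weakly expressed genes have the largest standard errors.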
